A study of Mus musculus with 12 samples.

Results

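Glucose uptake, glycolysis, pyruvate entry into mitochondria and the pentose phosphate pathway are described here through 37 genes in mouse fibroblasts at days 3 and 6 of induced reprogramming. A gene was represented by a microarray probe set that names it alone, and where several did so, by the probe set with the highest mean log2 intensity over the 12 arrays. This gave values for 33 of the 37 genes, out of 22180 genes with such a probe set. A gene was tested if it reached its array's 30th percentile in at least 3 arrays. All 33 did so in all 12 arrays and were tested together with the other genes that passed this low-value filter, 17860 in all. Of the remaining 4 genes, Aldoa appeared on a probe set shared with Aldoart1 and Tkt on one shared with Mir3076, and these, Gpi1 and Eno1 were not analysed here.

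Cells take up glucose through facilitative transporters of the Slc2a family and trap it as glucose 6-phosphate with hexokinases. Glycolysis converts it to pyruvate, which is either reduced to lactate and exported or oxidised by the mitochondrial pyruvate dehydrogenase complex, a complex that Pdk kinases switch off. The pentose phosphate pathway branches off at glucose 6-phosphate and supplies NADPH and ribose. Most steps are run by families of closely related enzymes with different tissue distributions, and a shift from oxidative towards glycolytic metabolism is a known feature of the conversion of fibroblasts into pluripotent cells.

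The study compared cells with a hairpin against Chaf1a, which encodes the large subunit of the histone chaperone CAF-1, with cells carrying a hairpin against Renilla luciferase, called controls here. All 12 samples were fibroblasts of embryonic day 13.5 from mice whose strain label joins C57Bl/6 and 129X1/SvJ by a hyphen, of the genotype Col1a1::tetOP-OKSM ; R26-M2rtTA, in which doxycycline switches on Oct4, Klf4, Sox2 and c-Myc. Hairpins were delivered by retrovirus, and cells were grown in embryonic stem cell medium with serum and LIF and given doxycycline for 3 or 6 days. The 4 groups, control and Chaf1a knockdown at day 3 and at day 6, held 3 arrays each, and no group without doxycycline was analysed here. No label ties a replicate to its own embryo or culture, and p-values measure only the spread between these samples. In such bulk samples, fewer cells of a type and less RNA per cell cannot be told apart.

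Median intensity per array lay between 39.5 and 43.3, and 9 of 10 fibroblast markers passed the filter, the exception being Lum. Chaf1a itself stood at log2 intensities of 7.42 to 7.72 in controls and 7.18 to 7.35 with the hairpin at day 3, and at 7.06 to 7.31 and 7.04 to 7.16 at day 6. Its differences of -0.29 at day 3 (adjusted p = 0.726) and -0.12 at day 6 (adjusted p = 0.999) did not pass the test, and the day 6 groups overlapped. The knockdown comparisons therefore rest on the hairpin labels, and little fall in the targeted transcript was measured. Between days 3 and 6 the summed intensity of 7 cycling-cell markers went from 5798 to 6243 down to 4345 to 5101 in controls, while the knockdown arrays of day 3 (5465 to 6390) and of day 6 (4878 to 5543) overlapped. In knockdown replicate 2 the sum was higher at day 6, at 5543 against 5470. Of these 7 markers, 4 fell in controls and 3 in knockdown cells. The summed level of 7 macrophage and leukocyte markers, of which Ptprc was below the filter, stood at 654 to 686 in controls of day 3 against 370 to 410 in those of day 6, and at 718 to 772 against 392 to 419 in knockdown arrays, and 1 of the 6 tested fell in controls and 2 in knockdown cells. Most of that sum was Cd68, which read 8.86 to 8.94 in day 3 controls and 7.62 to 7.82 in day 6 controls. In knockdown arrays Cd68 read 9.04 to 9.16 at day 3 and 7.78 to 7.92 at day 6. For 7 epithelial markers the summed level was 493 to 512 and 589 to 643 in controls, where 1 rose and 1 fell, and 446 to 503 and 875 to 1044 in knockdown arrays, where 4 rose. For 9 pluripotency markers it was 297 to 310 and 299 to 316 in controls, where none was called, and 298 to 300 and 438 to 536 in knockdown arrays, where 5 rose. Beside these marker counts, 6.99% of all genes rose and 10.6% fell in controls, and 7.46% rose and 10.5% fell in knockdown cells. The part of these markers in the changes of metabolic genes was not tested.

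Calls among these genes were made between the days, and none between the hairpins. In controls, 6 of the 33 genes rose from day 3 to day 6 and 8 fell, which is 42.4% of the 33 against 17.6% of all 17860 genes tested (limma, Benjamini-Hochberg adjusted over all genes, threshold 0.05). In knockdown cells 7 rose and 8 fell, or 45.5% against 17.9% of all genes. By direction, 6.99% of all genes rose and 10.6% fell in controls, and 7.46% rose and 10.5% fell in knockdown cells. At an unadjusted p under 0.05 there were 21 of the 33 genes in controls beside 30% of all genes, and 16 in knockdown cells beside 30.5%. All day 6 controls lay above all day 3 controls for 9 genes beside 16% of all genes, and below for 14 beside 19.3%, together 35.3% of all genes. In knockdown cells the days did not overlap upwards for 7 genes beside 15.4% and downwards for 9 beside 18.9%, together 34.3%. The median log2 change over the 33 genes was -0.04 in controls and -0.03 in knockdown cells, beside 0.01 in both for all genes, so rises and falls stood side by side. The 2 time comparisons share no array. Called in the same direction in both were 11 genes, namely Slc2a1, Slc2a3, Aldoc, Eno2, Pdk1 and Pdk2, which rose, and Pfkp, Pgk1, Ldha, Dlat and Pgd, which fell. That is 78.6% of the control calls and 73.3% of the knockdown calls, beside 66.3% and 65.1% for all genes. In this main fit no gene was called in opposite directions. Without day 3 control replicate 2, day 6 control replicate 1 or day 6 control replicate 2, the control count was 9 instead of 14. The share of all genes called in those fits is not given here, so this drop is not shown to be particular to the 33 genes.

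**Figure D1:**
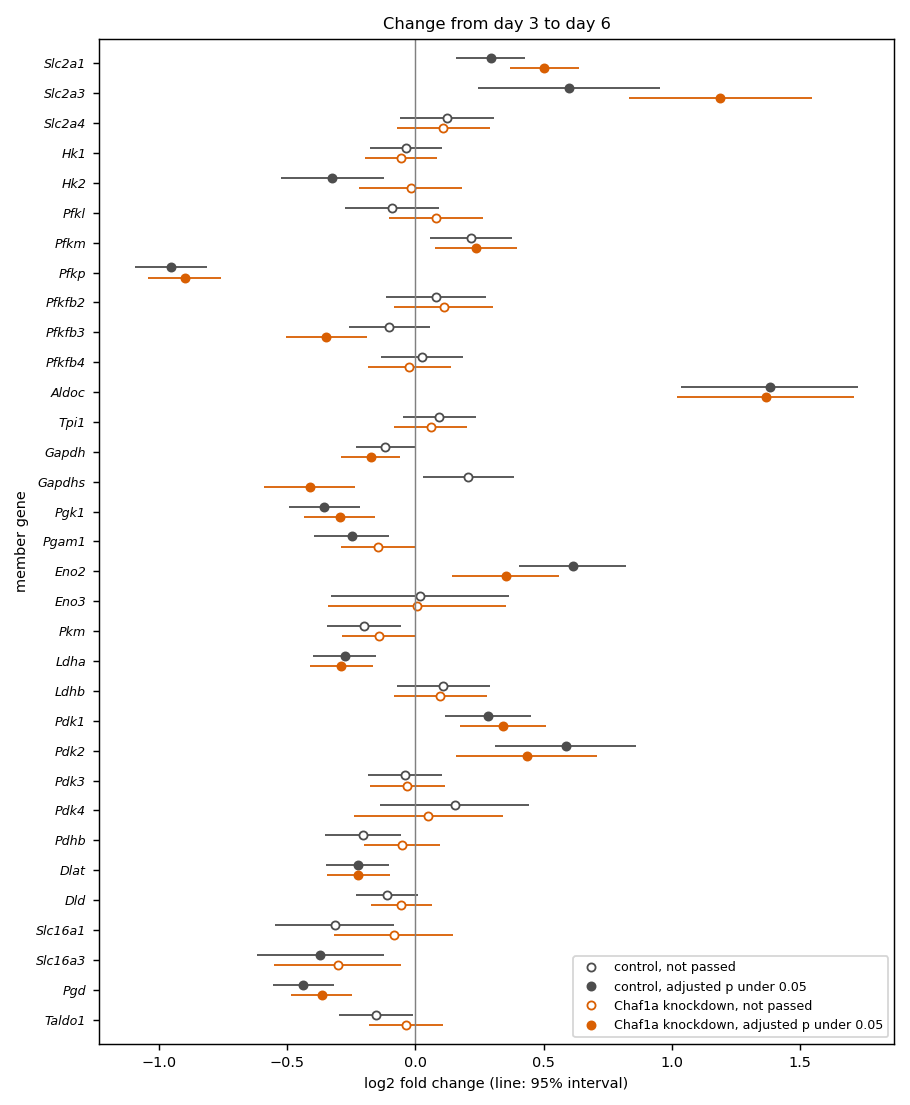
Log2 fold change from day 3 to day 6 (x axis) for each of the 33 genes (y axis), in control cells (grey) and Chaf1a knockdown cells (orange), with 95% intervals from the limma fit. Filled points have an adjusted p under 0.05. Aldoc lies at 1.38 and 1.37 and Pfkp at -0.95 and -0.90, while most other genes lie close to 0.

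Promoter sequence is shown for the pairs of genes with the largest mean rises and falls among those called in both time comparisons and listed with a single start site in RefSeq. Each window runs from 250 bases before to 50 bases after the start, on the gene's own strand, in GRCm38.p6. Eno2 lies at chr6:124769624-124769923 on the minus strand, Slc2a1 at chr4:119108495-119108794 on the plus strand, Pfkp at chr13:6648722-6649021 on the minus strand and Pgk1 at chrX:106186850-106187149 on the plus strand. Capitals mark ACGTG or GCGTG on either strand, the core letters read by hypoxia-inducible factors, which are known regulators of glycolytic genes.
Eno2: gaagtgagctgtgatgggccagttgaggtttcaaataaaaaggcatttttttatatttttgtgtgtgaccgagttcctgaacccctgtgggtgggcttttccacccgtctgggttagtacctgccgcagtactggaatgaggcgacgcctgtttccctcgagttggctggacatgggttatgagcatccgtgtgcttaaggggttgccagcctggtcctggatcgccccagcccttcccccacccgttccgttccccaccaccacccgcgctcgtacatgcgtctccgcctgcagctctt
Slc2a1: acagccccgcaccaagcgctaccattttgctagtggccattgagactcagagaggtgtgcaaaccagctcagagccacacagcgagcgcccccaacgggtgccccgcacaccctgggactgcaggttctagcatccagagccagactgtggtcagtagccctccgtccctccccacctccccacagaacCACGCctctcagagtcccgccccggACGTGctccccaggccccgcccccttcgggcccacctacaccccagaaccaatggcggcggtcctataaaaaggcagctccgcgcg
Pfkp: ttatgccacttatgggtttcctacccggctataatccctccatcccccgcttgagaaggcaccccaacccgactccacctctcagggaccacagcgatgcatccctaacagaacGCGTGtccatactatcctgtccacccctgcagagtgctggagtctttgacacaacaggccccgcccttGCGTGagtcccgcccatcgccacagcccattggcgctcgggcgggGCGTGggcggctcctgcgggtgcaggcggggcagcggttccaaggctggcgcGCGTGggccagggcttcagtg
Pgk1: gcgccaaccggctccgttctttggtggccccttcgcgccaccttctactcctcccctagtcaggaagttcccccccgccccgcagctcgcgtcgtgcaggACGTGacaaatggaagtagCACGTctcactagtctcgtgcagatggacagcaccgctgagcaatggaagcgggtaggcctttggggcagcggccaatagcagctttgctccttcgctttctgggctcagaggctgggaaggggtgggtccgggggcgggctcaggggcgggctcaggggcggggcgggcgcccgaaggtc
The Pgk1 window held 2 matches of ACGTG, the Slc2a1 window 1 of each motif, the Pfkp window 4 of GCGTG and the Eno2 window none of either. So one gene that rose and both that fell carried matches. RefSeq's promoter table held 53 windows for 35 of the 37 genes, matched by symbol. ACGTG was present in 43.4% of these windows, beside 19.6% of all 32851 windows in the table, and GCGTG in 54.7% beside 32.4%. The E-box CACGTG, which contains ACGTG and is read by Myc among others, was present in 11.3% beside 7.15%. These are letter matches, not binding sites, and several windows of a gene can share sequence.

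Of the 3 glucose transporters, 2 rose with time in both hairpin groups. Slc2a1 encodes Glut1, the widespread basal transporter, and Slc2a3 encodes Glut3, a high-affinity transporter best known from neurons and also found in early embryos. Slc2a1 log2 intensities were 10.56, 10.55 and 10.55 in day 3 controls, 10.68, 10.54 and 10.56 in knockdown arrays of day 3, 10.85, 10.88 and 10.82 in day 6 controls, and 11.19, 11.02 and 11.07 in knockdown arrays of day 6. Every day 6 array was above every day 3 array, and the day 6 knockdown arrays were above all others. The rise was 0.29 (SE 0.06, 1.23-fold, adjusted p = 0.00634) in controls and 0.50 (SE 0.06, 1.42-fold, adjusted p = 0.000189) in knockdown cells. A second, dimmer Slc2a1 probe set, with a mean of 6.05, moved by 0.02 and 0.13, and with the mean of both probe sets the control change was 0.16 (adjusted p = 0.0704) and the knockdown rise 0.32 (adjusted p = 0.00183).

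Slc2a3 read 7.93, 8.64 and 8.42 in day 3 controls, 8.03, 8.30 and 8.34 in knockdown arrays of day 3, 8.65, 9.11 and 9.03 in day 6 controls, and 9.31, 9.44 and 9.48 in knockdown arrays of day 6. The day 6 knockdown arrays were again the highest of all 12. It rose by 0.60 (SE 0.16, 1.52-fold, adjusted p = 0.0245) in controls and by 1.19 (SE 0.16, 2.28-fold, adjusted p = 0.000426) in knockdown cells. The control rise did not pass without day 3 control replicate 1 (0.40, adjusted p = 0.0725), day 6 control replicate 2 (0.51, adjusted p = 0.0907) or day 6 control replicate 3 (0.55, adjusted p = 0.0798). Nor did it pass in a fit of only the groups compared (adjusted p = 0.0627). Slc2a4, the insulin-regulated transporter of muscle and fat, read 4.94 to 5.38, with a mean of 5.16 over the 12 arrays, and its changes of 0.12 and 0.11 did not pass.

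Within an array, the log2 ratio of Slc2a1 to Slc2a3 was 2.23 ± 0.36 (SD, n = 3) in day 3 controls, 2.37 ± 0.24 in knockdown arrays of day 3, 1.92 ± 0.25 in the controls of day 6, against 1.69 ± 0.17 in the knockdown arrays of that day. In knockdown arrays the days did not overlap, and in controls they did. The ratio of Slc2a1 to Slc2a4 went from 5.43 ± 0.02 to 5.60 ± 0.09 in controls and from 5.52 ± 0.20 to 5.92 ± 0.10 in knockdown arrays, without overlap between days. Within replicate numbers the ratio of Slc2a1 to Slc2a3 moved down from day 3 to day 6 in all 3 pairs of both hairpin groups, by -0.42, -0.15 and -0.35 in controls and by -0.77, -0.66 and -0.63 in knockdown arrays. Such a ratio follows unequal change of 2 probe sets on the same array. Its sign says nothing of which transcript is the more abundant, and it was not tested.

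**Figure D2:**
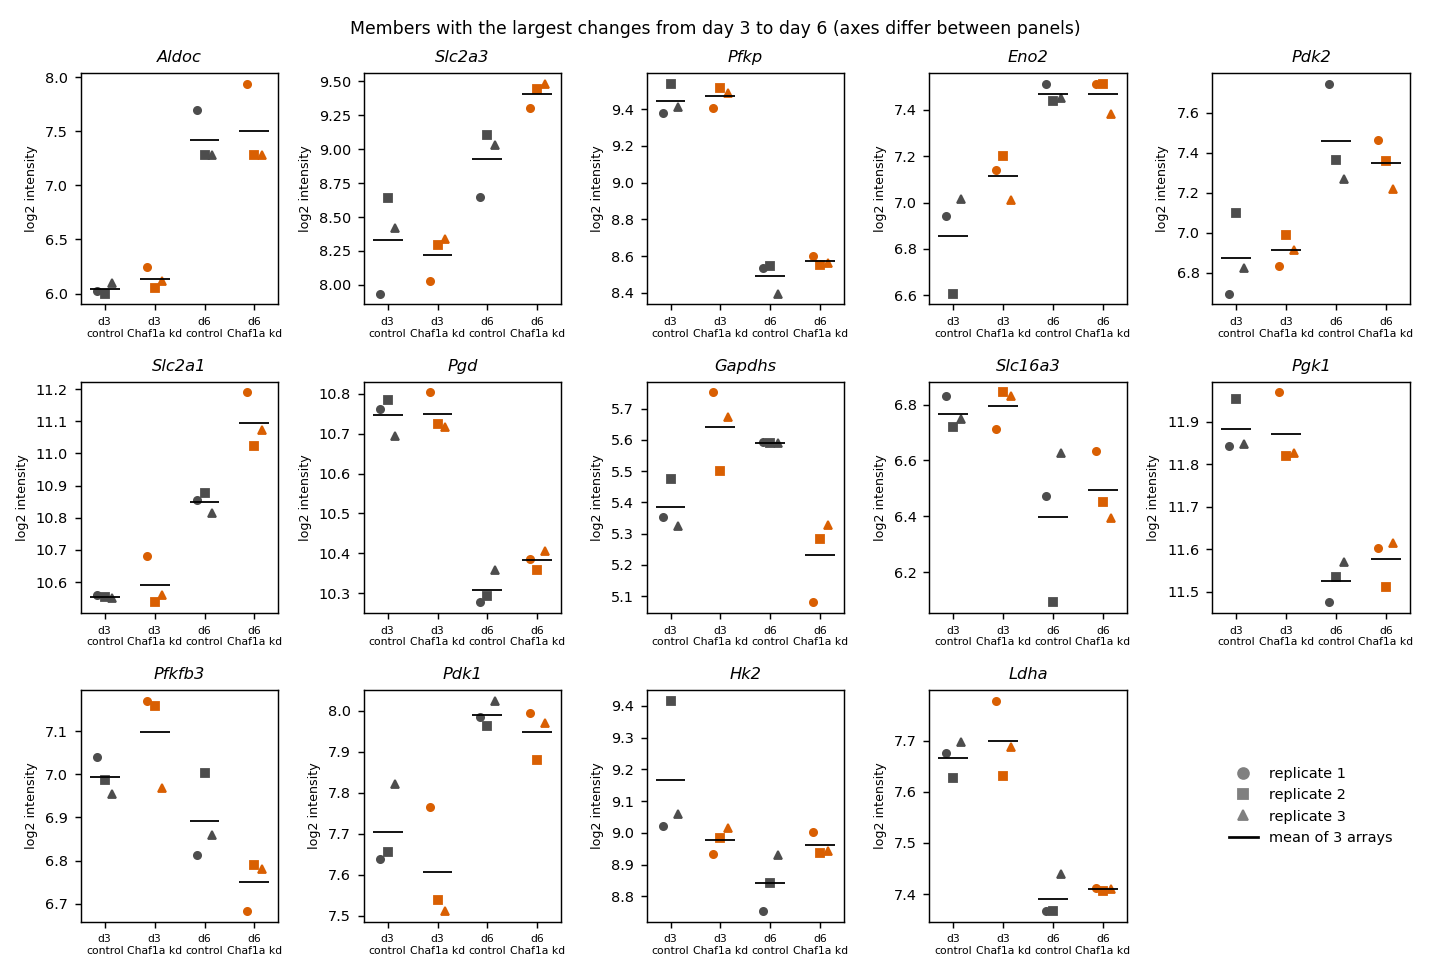
Log2 intensity (y axis) in each of the 12 arrays for 14 genes with the largest changes from day 3 to day 6 that passed in at least 1 hairpin group. Points are arrays, with a shape per replicate number and orange for Chaf1a knockdown, lines are means of 3 arrays, and axes differ between panels. Aldoc is 6.00 to 6.24 at day 3 and 7.28 to 7.94 at day 6, and Pfkp is 9.38 to 9.54 at day 3 and 8.39 to 8.60 at day 6.

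Of the hexokinases, Hk2 fell in controls. Hk1 encodes the housekeeping isoform, and Hk2 the inducible isoform of muscle, fat and many tumours. Hk2 read 9.02, 9.42 and 9.06 in day 3 controls, 8.93, 8.98 and 9.02 in knockdown arrays of day 3, 8.75, 8.84 and 8.93 in day 6 controls, and 9.001, 8.94 and 8.94 in knockdown arrays of day 6. One day 3 control array stood above the rest. Hk2 fell by 0.32 (SE 0.09, 1.25-fold, adjusted p = 0.0298) in controls, and in knockdown cells its change of -0.02 (95% interval -0.22 to 0.18) did not pass. The control call was lost without day 3 control replicate 2 (-0.20, adjusted p = 0.0798), day 6 control replicate 1 (-0.28, adjusted p = 0.114) or day 6 control replicate 2 (-0.32, adjusted p = 0.0739). That call was also lost in a fit of only the groups compared (adjusted p = 0.0853). The difference between hairpins, 0.31, did not pass (adjusted p = 0.972). Hk1 read 8.02, 8.18 and 8.05 in day 3 controls, 7.99, 8.13 and 8.05 in knockdown arrays of day 3, 8.06, 8.04 and 8.06 in day 6 controls, and 7.91, 8.05 and 8.03 in knockdown arrays of day 6. These 4 groups overlapped, and its changes of -0.04 and -0.06 did not pass.

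The ratio of Hk1 to Hk2 within arrays was -1.08 ± 0.13 in day 3 controls and -0.79 ± 0.09 in day 6 controls, with no overlap, and -0.92 ± 0.06 and -0.96 ± 0.11 in the knockdown arrays of day 3 and day 6, which overlapped and moved in both directions among the 3 same-number pairs (-0.15, -0.02 and 0.05). Knockdown arrays lay above controls at day 3 and below them at day 6.

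Phosphofructokinase, the committed step of glycolysis, showed the largest shift between isoforms among the ratios computed. Pfkp encodes the platelet-type subunit, Pfkl the liver-type and Pfkm the muscle-type subunit, and the enzyme is a tetramer that can mix them. Pfkp read 9.38, 9.54 and 9.41 in day 3 controls, 9.41, 9.51 and 9.49 in knockdown arrays of day 3, 8.53, 8.54 and 8.39 in day 6 controls, and 8.60, 8.55 and 8.56 in knockdown arrays of day 6. The days were far apart, with no array in between. It fell by 0.95 (SE 0.06, 1.94-fold, adjusted p = 3.69e-06) in controls and by 0.90 (SE 0.06, 1.87-fold, adjusted p = 3.98e-06) in knockdown cells.

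Pfkm read 7.32, 7.49 and 7.48 in day 3 controls, 7.29, 7.30 and 7.38 in knockdown arrays of day 3, 7.65, 7.63 and 7.67 in day 6 controls, and 7.62, 7.41 and 7.65 in knockdown arrays of day 6. All day 6 arrays were above the day 3 arrays of their own hairpin. In knockdown cells Pfkm rose by 0.24 (1.18-fold, adjusted p = 0.0416), and in controls the change of 0.22 missed the threshold (adjusted p = 0.0612). The knockdown call was lost without knockdown replicate 1, 2 or 3 of day 3 (0.22, 0.23 and 0.27, adjusted p = 0.116, 0.0994 and 0.0602) and without knockdown replicate 1 or 3 of day 6 (0.21 and 0.19, adjusted p = 0.119 and 0.138). Array weights, no low-value filter or only the groups compared also lost that call (adjusted p = 0.0657, 0.0516 and 0.0919). Pfkl read 8.67, 9.003 and 8.75 in day 3 controls, 8.75, 8.70 and 8.62 in knockdown arrays of day 3, 8.69, 8.73 and 8.72 in day 6 controls, and 8.89, 8.72 and 8.71 in knockdown arrays of day 6. All 4 groups overlapped, and its changes of -0.09 and 0.08 did not pass.

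The log2 ratio of Pfkm to Pfkp went from -2.01 ± 0.07 to -0.84 ± 0.10 in controls and from -2.15 ± 0.05 to -1.01 ± 0.11 in knockdown arrays. That of Pfkl to Pfkp went from -0.64 ± 0.09 to 0.23 ± 0.09 and from -0.78 ± 0.11 to 0.20 ± 0.08. In both ratios every day 6 array was above every day 3 array, and of the 3 genes Pfkp moved most. The ratio of Pfkl to Pfkm was 1.38 ± 0.12 at day 3 and 1.07 ± 0.03 at day 6 in controls, and 1.37 ± 0.11 and 1.21 ± 0.13 in knockdown arrays, where the days overlapped but the ratio moved down in all 3 same-number pairs (-0.20, -0.09 and -0.18). Of 6 skeletal muscle markers that passed the filter, none was called in either time comparison, and the summed level of all 7 on the list was 486 to 530 and 447 to 493 in controls of day 3 and day 6, and 484 to 548 and 458 to 482 in knockdown arrays.

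**Figure D3:**
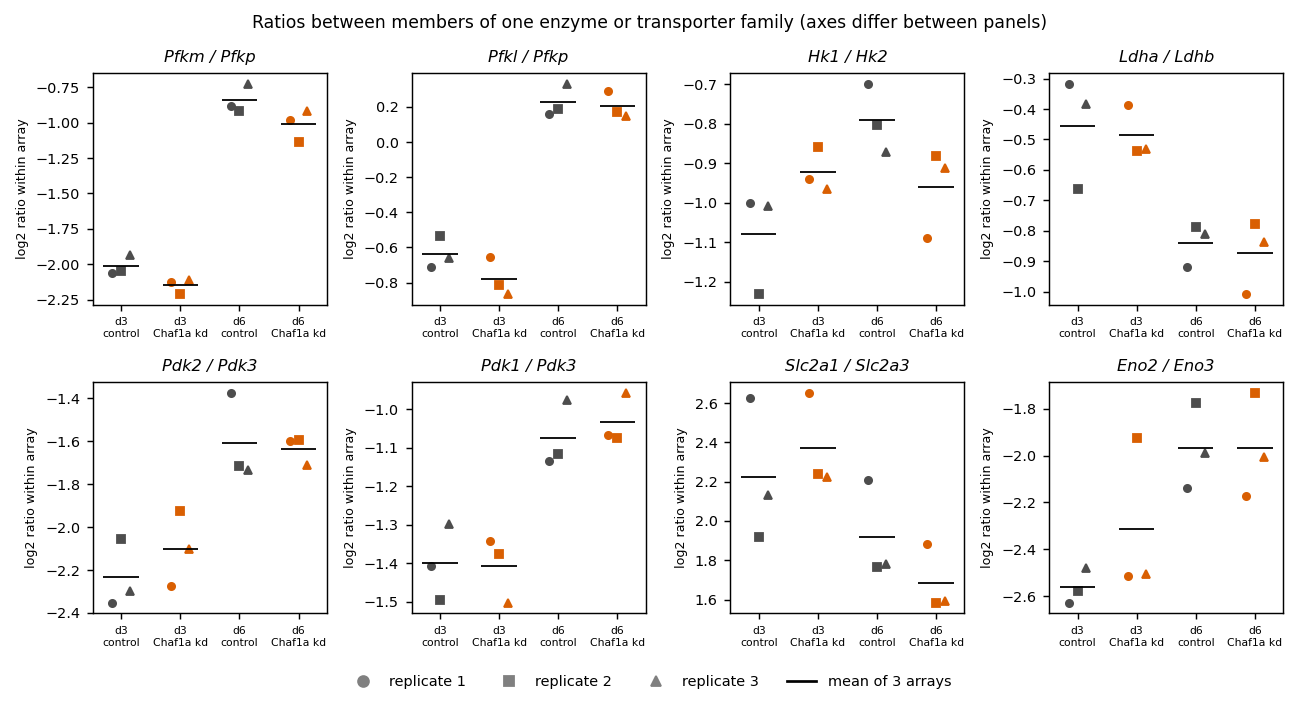
Log2 ratio within each array (y axis) for 8 of the pairs of related genes, by day and hairpin. Gapdh to Gapdhs and Slc2a1 to Slc2a4 are not drawn. Points are arrays, lines are means of 3 arrays, and axes differ between panels. The 2 ratios over Pfkp lie higher in all 6 day 6 arrays than in all 6 day 3 arrays, and Ldha to Ldhb lies lower.

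The Pfkfb genes encode bifunctional enzymes that set fructose 2,6-bisphosphate, the activator of phosphofructokinase. Pfkfb3, the isoform with the strongest kinase activity, read 7.04, 6.99 and 6.95 in day 3 controls, 7.17, 7.16 and 6.97 in knockdown arrays of day 3, 6.81, 7.003 and 6.86 in day 6 controls, and 6.68, 6.79 and 6.78 in knockdown arrays of day 6. The 3 day 6 knockdown arrays were the lowest of the 12. Pfkfb3 fell by 0.35 (SE 0.07, 1.27-fold, adjusted p = 0.0058) in knockdown cells, while the control change of -0.10 did not pass (adjusted p = 0.390). Pfkfb2 (0.08 and 0.11) and Pfkfb4 (0.03 and -0.02) did not pass in either.

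In the aldolase step, Aldoc had the largest rise of the 33 genes in both time comparisons. It encodes the brain-type aldolase, and it read 6.02, 6.00 and 6.10 in day 3 controls, 6.24, 6.05 and 6.11 in knockdown arrays of day 3, 7.70, 7.28 and 7.28 in day 6 controls, and 7.94, 7.28 and 7.28 in knockdown arrays of day 6. All day 6 arrays were above all day 3 arrays, and the replicate 1 arrays stood above the other two of their group on day 6. The rise was 1.38 (SE 0.16, 2.61-fold, adjusted p = 0.000145) in controls and 1.37 (SE 0.16, 2.58-fold, adjusted p = 0.000125) in knockdown cells. No ratio to Aldoa could be formed. Tpi1, triose phosphate isomerase, gave log2 differences of 0.09 and 0.06, neither past the test.

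Eno2, the neuron-type enolase, rose as well. It read 6.94, 6.61 and 7.02 in day 3 controls, 7.14, 7.20 and 7.01 in knockdown arrays of day 3, 7.51, 7.44 and 7.45 in day 6 controls, and 7.51, 7.51 and 7.38 in knockdown arrays of day 6. The lowest value was that of 1 day 3 control array, and the day 6 groups were nearly equal. It rose by 0.61 (SE 0.10, 1.53-fold, adjusted p = 0.0011) in controls and by 0.35 (SE 0.10, 1.28-fold, adjusted p = 0.0238) in knockdown cells. The latter call was lost without knockdown replicate 1 or 3 of day 3 (0.36 and 0.30, adjusted p = 0.0525 and 0.0917) or replicate 1 or 2 of day 6 (0.33 in both, adjusted p = 0.0675 and 0.0775). Eno3, the muscle-type enolase, read 9.57, 9.19 and 9.50 in day 3 controls, 9.65, 9.12 and 9.52 in knockdown arrays of day 3, 9.65, 9.21 and 9.44 in day 6 controls, and 9.68, 9.24 and 9.39 in knockdown arrays of day 6. The second replicate was the lowest in each group, and the changes of 0.02 and 0.01 did not pass. The Eno2 to Eno3 ratio went from -2.56 ± 0.08 to -1.97 ± 0.18 in controls without overlap, and from -2.31 ± 0.34 to -1.97 ± 0.22 in knockdown arrays with overlap, although it moved up in all 3 same-number pairs there (0.34, 0.19 and 0.50).

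Of 6 neuronal markers, all above the filter, none rose and 2 fell in each time comparison, namely Tubb3 (-0.97 in controls and -0.61 in knockdown cells) and Stmn2 (-0.66 and -0.62). The log2 differences of the other 4 ran from 0.01 to 0.20 in controls and from -0.22 to 0.23 in knockdown cells, none past the test, and the median over the 6 was 0.02 and -0.07. Their summed intensity was 2128 to 2532 and 2327 to 2531 at day 3 (control and knockdown) and 1425 to 1656 and 1518 to 1942 at day 6, and most of that sum was Stmn2. Without Stmn2 it was 343 to 381 and 304 to 348 at day 3, and 274 to 299 and 278 to 321 at day 6. Their part in the rises of Aldoc and Eno2 was not tested.

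The other enzymes of lower glycolysis fell or did not pass. Pgk1, phosphoglycerate kinase, read 11.84, 11.96 and 11.85 in day 3 controls, 11.97, 11.82 and 11.83 in knockdown arrays of day 3, 11.47, 11.54 and 11.57 in day 6 controls, and 11.60, 11.51 and 11.61 in knockdown arrays of day 6. The days did not overlap. It fell by 0.36 (SE 0.06, 1.28-fold, adjusted p = 0.00257) in controls and by 0.30 (1.23-fold, adjusted p = 0.00699) in knockdown cells. Pgam1, phosphoglycerate mutase, fell by 0.25 (1.19-fold, adjusted p = 0.0242) in controls, and its change of -0.14 in knockdown cells did not pass. The Pgam1 call was lost without day 3 control replicate 2 (-0.22, adjusted p = 0.0862), day 6 control replicate 1 (-0.22, adjusted p = 0.0938) or day 6 control replicate 2 (-0.24, adjusted p = 0.0715), and with the mean of both Pgam1 probe sets (-0.26, adjusted p = 0.0672). The second probe set, with a mean of 7.77, moved by -0.28 in controls and -0.45 in knockdown cells. Pkm, the pyruvate kinase gene whose splice forms were not analysed here, gave log2 differences of -0.20 (adjusted p = 0.0547) and -0.14, neither past the test.

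Gapdh, the widespread glyceraldehyde 3-phosphate dehydrogenase, gave a log2 difference of -0.12 in controls, which did not pass. In knockdown cells it fell by 0.17 (1.13-fold, adjusted p = 0.0399), a call that was lost with the replicate number as a block (adjusted p = 0.0564) and without any one of the 6 knockdown arrays, with values from -0.15 to -0.19 and adjusted p-values from 0.0552 to 0.120. The Gapdh call was also lost with no low-value filter, the mean of its probe sets or only the groups compared (adjusted p = 0.0543, 0.141 and 0.106). Its other probe sets moved by -0.16 and -0.10 in controls and by -0.14 and -0.15 in knockdown cells.

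Gapdhs, the sperm-specific form, had a mean of 5.46, which is percentile 51.3 among the means of all probe sets. It read 5.35, 5.48 and 5.32 in day 3 controls, 5.75, 5.50 and 5.67 in knockdown arrays of day 3, 5.59 in each of the 3 day 6 controls, and 5.08, 5.28 and 5.33 in knockdown arrays of day 6. Knockdown arrays were thus above controls at day 3 and below them at day 6. In knockdown cells it fell by 0.41 (SE 0.08, 1.33-fold, adjusted p = 0.0042), and the control change of 0.21 did not pass (adjusted p = 0.108). With array weights the control change passed as a rise (0.24, adjusted p = 0.0216), opposite to the knockdown fall. The log2 ratio of Gapdh to Gapdhs went from 7.63 ± 0.12 to 7.30 ± 0.02 in controls. In knockdown arrays it went from 7.43 ± 0.11 to 7.67 ± 0.09. The days did not overlap in either hairpin group, and the directions were opposite. At day 6 the ratio was higher in all knockdown arrays than in all controls, and it was not tested. Of 5 sperm markers with a probe set, Acrv1 and Ddx4 were below the filter and Odf1 alone was high, with a mean of 12.37. Odf1 fell in knockdown cells by 0.24 (adjusted p = 0.00869), and the summed level of the 5 was 5508 to 5816 in day 3 controls, 5776 to 5854 in knockdown arrays of day 3, 5063 to 5227 in day 6 controls and 4830 to 5149 in knockdown arrays of day 6. Most of that sum was Odf1, so it says little of the other markers. The part of these markers in the Gapdhs change was not tested.

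Lactate genes fell or did not pass. Ldha encodes the A subunit of lactate dehydrogenase, which predominates in muscle and many proliferating cells, and Ldhb the B subunit of heart. Ldha read 7.68, 7.63 and 7.70 in day 3 controls, 7.78, 7.63 and 7.69 in knockdown arrays of day 3, 7.37, 7.37 and 7.44 in day 6 controls, and 7.41 in each of the 3 day 6 knockdown arrays. All day 6 arrays were below all day 3 arrays. It fell by 0.28 (SE 0.06, 1.21-fold, adjusted p = 0.00556) in controls and by 0.29 (1.22-fold, adjusted p = 0.00392) in knockdown cells. Ldhb read 7.99, 8.29 and 8.08 in day 3 controls, 8.17, 8.17 and 8.22 in knockdown arrays of day 3, 8.29, 8.16 and 8.25 in day 6 controls, and 8.42, 8.18 and 8.25 in knockdown arrays of day 6. The days overlapped, and the changes of 0.11 and 0.10 did not pass. The log2 ratio of Ldha to Ldhb went from -0.45 ± 0.18 to -0.84 ± 0.07 in controls and from -0.49 ± 0.09 to -0.87 ± 0.12 in knockdown arrays, with no overlap between days in either.

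The lactate exporters Slc16a3 (Mct4) and Slc16a1 (Mct1, which also imports lactate) gave 1 call between them. Slc16a3 read 6.83, 6.72 and 6.75 in day 3 controls, 6.71, 6.84 and 6.83 in knockdown arrays of day 3, 6.47, 6.09 and 6.63 in day 6 controls, and 6.63, 6.45 and 6.39 in knockdown arrays of day 6. Each day 6 array was below each day 3 array, and day 6 control replicate 2 was the lowest. It fell by 0.37 (SE 0.11, 1.29-fold, adjusted p = 0.0414) in controls, and its change of -0.30 in knockdown cells did not pass (adjusted p = 0.0889). The control call was lost without day 6 control replicate 2 (-0.22, adjusted p = 0.133) or replicate 1 (-0.41, adjusted p = 0.0697), or without replicate 1, 2 or 3 of the day 3 controls (-0.34, -0.39 and -0.38, adjusted p = 0.106, 0.0817 and 0.0857). In a fit of only the groups compared, the control call was also lost (adjusted p = 0.0857) and the knockdown fall passed (adjusted p = 0.0471). Slc16a1 gave log2 differences of -0.31 (adjusted p = 0.0625) and -0.08, neither past the test.

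At the entry of pyruvate into mitochondria, 2 of the 4 Pdk kinases rose and 1 of the 3 dehydrogenase complex genes fell, in both hairpin groups. Pdk2, the most widely expressed kinase of the family, read 6.69, 7.10 and 6.82 in day 3 controls, 6.83, 6.99 and 6.92 in knockdown arrays of day 3, 7.74, 7.36 and 7.27 in day 6 controls, and 7.46, 7.36 and 7.22 in knockdown arrays of day 6. The days did not overlap. It rose by 0.59 (SE 0.13, 1.502-fold, adjusted p = 0.00739) in controls and by 0.43 (1.35-fold, adjusted p = 0.0329) in knockdown cells. The knockdown call was lost without replicate 1, 2 or 3 of day 3 (0.39, 0.47 and 0.44, adjusted p = 0.102, 0.0514 and 0.0786) or replicate 1 or 2 of day 6 (0.38 and 0.43, adjusted p = 0.101 and 0.086).

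Pdk1, a hypoxia-inducible kinase, read 7.64, 7.66 and 7.82 in day 3 controls, 7.77, 7.54 and 7.51 in knockdown arrays of day 3, 7.98, 7.96 and 8.02 in day 6 controls, and 7.99, 7.88 and 7.97 in knockdown arrays of day 6. Day 6 arrays were above day 3 arrays throughout. It rose by 0.28 (SE 0.08, 1.22-fold, adjusted p = 0.0242) in controls and by 0.34 (1.27-fold, adjusted p = 0.00896) in knockdown cells. The control call was lost without replicate 1 or 2 of day 3 (0.25 and 0.26, adjusted p = 0.0737 and 0.0823) or replicate 1, 2 or 3 of day 6 (0.29, 0.30 and 0.27, adjusted p = 0.0643, 0.0526 and 0.0759). A second Pdk1 probe set with a mean of 3.17, below the filter, moved by 0.03 and -0.03, and with the mean of both probe sets the change was 0.16 in both hairpin groups (adjusted p = 0.116 and 0.112). Pdk3 read 9.05, 9.15 and 9.12 in day 3 controls, 9.11, 8.92 and 9.02 in knockdown arrays of day 3, 9.12, 9.08 and 9.0005 in day 6 controls, and 9.06, 8.96 and 8.93 in knockdown arrays of day 6. Its changes of -0.04 and -0.03 did not pass, nor did those of Pdk4, the kinase induced by fasting (0.15 and 0.05), which ranged from 6.15 to 6.77 over the 12 arrays.

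The log2 ratio of Pdk2 to Pdk3 went from -2.23 ± 0.16 to -1.61 ± 0.20 in controls and from -2.10 ± 0.18 to -1.64 ± 0.07 in knockdown arrays. That of Pdk1 to Pdk3 went from -1.40 ± 0.10 to -1.08 ± 0.09 and from -1.41 ± 0.09 to -1.03 ± 0.07. Neither ratio overlapped between days in either hairpin group.

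Dlat encodes the E2 core of the pyruvate dehydrogenase complex, Pdhb a subunit of its E1 component and Dld its E3 component. Dlat fell by 0.23 (1.17-fold, adjusted p = 0.0161) in controls and by 0.22 (1.17-fold, adjusted p = 0.0163) in knockdown cells. The control call was lost without replicate 2 or 3 of day 3 (-0.19 and -0.22, adjusted p = 0.0596 and 0.052) or replicate 1 of day 6 (-0.21, adjusted p = 0.0628), and the knockdown call without replicate 3 of day 3 (-0.22, adjusted p = 0.0517) or replicate 1 or 2 of day 6 (-0.21 and -0.22, adjusted p = 0.0522 and 0.0503). A fit of only the groups compared also lost the control call (adjusted p = 0.0559). Pdhb gave log2 differences of -0.20 (adjusted p = 0.0583) and -0.05, and Dld of -0.11 and -0.05, none past the test.

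In the pentose phosphate pathway, Pgd, the second of its NADPH-producing dehydrogenases, fell. It read 10.76, 10.78 and 10.69 in day 3 controls, 10.80, 10.72 and 10.72 in knockdown arrays of day 3, 10.28, 10.29 and 10.36 in day 6 controls, and 10.39, 10.36 and 10.41 in knockdown arrays of day 6. The days were well apart. The fall was by 0.44 (SE 0.06, 1.35-fold, adjusted p = 0.000263) in controls and by 0.37 (1.29-fold, adjusted p = 0.000793) in knockdown cells. Taldo1, transaldolase of the non-oxidative branch, read 7.90, 8.01 and 7.97 in day 3 controls, 7.91, 7.71 and 7.84 in knockdown arrays of day 3, 7.72, 7.86 and 7.85 in day 6 controls, and 7.79, 7.76 and 7.80 in knockdown arrays of day 6. Its changes of -0.15 and -0.04 did not pass.

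None of the 33 genes passed the test between hairpins. At day 3, 0 of 33 passed beside 0% of all 17860 genes (limma), 2 had an unadjusted p under 0.05 beside 6.01% of all genes, and the smallest adjusted p was 0.726. Fold changes ran from -0.19 to 0.26 on the log2 scale with a median of 0.00. Knockdown arrays lay above all controls for Gapdh and Gapdhs, beside 5.21% of all genes, and below them for Hk2, beside 5.59%, together 10.8% of all genes. At day 6, 0 of 33 passed beside 0.0392% of all genes, 3 had an unadjusted p under 0.05 beside 4.44%, and the smallest adjusted p was 0.318. The log2 range was -0.36 to 0.48 and the median 0.02. Here knockdown arrays lay above all controls for Slc2a1, Slc2a3, Hk2, Pfkp and Slc16a1, beside 5% of all genes, and below them for Pfkfb3 and Gapdhs, beside 5.57%, together 10.6% of all genes. The 7 genes that did pass at day 6 all were higher in knockdown cells, and 3 of them stood on a list of 9 pluripotency markers.

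The genes with the smallest unadjusted p at each day are given here, and none of them was near a call. At day 6 Slc2a1 was higher in knockdown arrays by 0.25 (95% interval 0.11 to 0.38, adjusted p = 0.538) and Slc2a3 by 0.48 (0.12 to 0.84, adjusted p = 0.994). At day 3 their differences were 0.04 and -0.11. Gapdhs differed by 0.26 (0.08 to 0.43, adjusted p = 0.726) at day 3 and by -0.36 (-0.54 to -0.18, adjusted p = 0.318) at day 6. At day 3 Eno2 differed by 0.26 (adjusted p = 0.762) and Taldo1 by -0.14 (adjusted p = 0.837). These intervals are not adjusted for the number of genes.

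Whether the knockdown effect differed between the days was tested directly. Again 0 of 33 genes passed, beside 0% of all genes, with 5 at an unadjusted p under 0.05 beside 5.1% of all genes. The largest differences were -0.62 for Gapdhs (adjusted p = 0.686) and 0.59 for Slc2a3 (adjusted p = 0.972), and Slc2a1 gave 0.21 (adjusted p = 0.972). The calls made in only 1 of the 2 time comparisons, for Hk2, Pgam1, Slc16a3, Pfkm, Pfkfb3, Gapdh and Gapdhs, are therefore not shown to differ between hairpins.

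**Figure D4:**
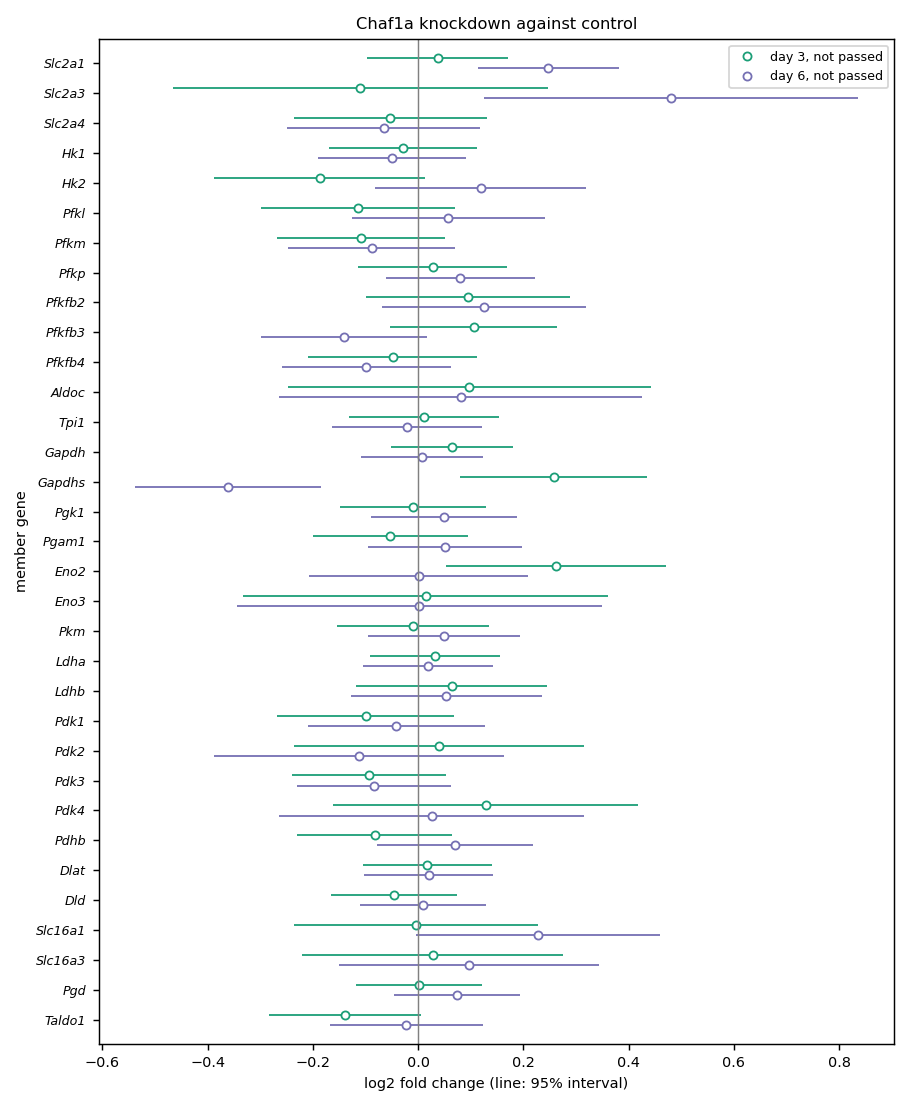
Log2 fold change of Chaf1a knockdown against control (x axis) for each of the 33 genes (y axis) at day 3 (green) and day 6 (violet), with unadjusted 95% intervals from the limma fit. All points are open because none had an adjusted p under 0.05. Slc2a3 reaches 0.48 and Gapdhs -0.36 at day 6.

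Among 56 tested genes of the same and adjoining pathways outside the 37, 6 rose and 13 fell in controls, or 33.9% beside 17.6% of all genes, and 3 rose and 12 fell in knockdown cells, or 26.8% beside 17.9%. None was called in the knockdown comparisons or in their difference. These lists too were chosen with earlier results of these data known, so their shares are description only. Of 11 other glucose transporters and hexokinases tested, 2 rose in controls and 2 fell in knockdown cells. That is 18.2% in each, near the 17.6% and 17.9% of all genes. Slc2a12 (0.82, adjusted p = 0.0315) and Slc2a8 (0.25, adjusted p = 0.0141) rose in controls, while the transporter Slc2a6 (-0.28, adjusted p = 0.016) and the ADP-dependent glucokinase Adpgk (-0.24, adjusted p = 0.027) fell in knockdown cells. Slc2a12 read 4.61, 4.31 and 4.30 in day 3 controls, near the filter, and 5.80, 4.97 and 4.91 in day 6 controls. Its knockdown change of 0.50 did not pass. Of 12 other genes of glycolysis and gluconeogenesis, 1 rose and 2 fell in controls (25%), and 1 rose and 4 fell in knockdown cells (41.7%). Pck2, the mitochondrial phosphoenolpyruvate carboxykinase, rose by 0.70 and 0.67 (adjusted p = 6.62e-05 and 7.9e-05). Gpd2, the mitochondrial glycerol phosphate dehydrogenase, fell by 0.44 and 0.45, and Tigar, a phosphatase that lowers fructose 2,6-bisphosphate, by 0.41 and 0.28. Bpgm, which makes 2,3-bisphosphoglycerate, fell by 0.41 in knockdown cells (adjusted p = 0.0172), and its control change of -0.29 did not pass.

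Of 12 further pyruvate and lactate genes, 2 rose and 2 fell in controls (33.3%), and 2 rose and 1 fell in knockdown cells (25%). The shares of all genes were 17.6% and 17.9%. Pcx, pyruvate carboxylase, rose by 0.70 and 0.59 (adjusted p = 0.000399 and 0.00111), and Me1, the cytosolic malic enzyme that yields NADPH, fell by 0.63 and 0.57 (adjusted p = 0.000132 and 0.000213). Pdhx, a binding component of the pyruvate dehydrogenase complex, fell by 0.34 in controls (adjusted p = 0.0404) with a knockdown change of 0.01, and the D-lactate dehydrogenase gene Ldhd rose by 0.25 and 0.24. Of 10 further pentose phosphate genes tested, 1 rose and 3 fell in controls (40%), and 1 fell in knockdown cells (10%). The epimerase Rpe was the gene that fell in both, by 0.38 and 0.27 (adjusted p = 0.00475 and 0.0252). The ribose phosphate pyrophosphokinases Prps1 (-0.39) and Prps2 (-0.26) fell in controls, while their knockdown changes of -0.24 and -0.04 did not pass, and the lactonase gene Pgls (0.21) rose in controls. Of 11 genes of glycogen and hexose branches, 6 fell in controls and 4 in knockdown cells and none rose, with median log2 changes of -0.19 and -0.18. That is 54.5% and 36.4%, while 10.6% and 10.5% of all genes fell. Ugp2, which makes UDP-glucose, fell by 0.46 and 0.58, and Gfpt2, the entry enzyme of the hexosamine pathway, by 0.74 and 0.57. The phosphoglucomutase gene Pgm2 fell by 0.31 and 0.29, and the glycogen branching enzyme gene Gbe1 by 0.37 in controls.

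Of 18 hypoxia factors and targets outside glucose metabolism, 3 rose and 1 fell in controls, and 2 rose and 1 fell in knockdown cells. These shares, 22.2% and 16.7%, are near the 17.6% and 17.9% of all genes. Ddit4, an inhibitor of mTOR signalling, rose by 0.36 and 0.41, and Kdm3a, a histone demethylase, by 0.22 and 0.31. Mxi1, a Myc antagonist, rose by 0.29 in controls. Car12, a carbonic anhydrase, fell by 0.91 and 0.80. Hif1a, the regulated subunit of the hypoxia-inducible factor, gave log2 differences of 0.04 and 0.06, neither past the test.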

How the data were processed

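Biotin-labelled material made from 100 ng of RNA of 12 mouse fibroblast samples was hybridised to Affymetrix arrays, per the labels' protocols, which describe total RNA extraction while a label calls the molecule polyA RNA. The deposited values are intensities that the authors normalised by RMA (version not given in the sources used here) in Affymetrix Expression Console 1.3.0.187, as the submitters' processing notes list them. They ran from 4.71 to 13421, a linear scale, although log2 values had been assumed, so their log2 was taken and nothing else was changed. The sources used here also gave no scan dates, genome build or annotation version for the arrays.

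Of 41345 probe sets, 23521 named 1 gene, 1814 several and 16010 none in the platform annotation. Those naming several genes, 12 of them with a member, were left out. A gene was tested if it reached its array's 30th percentile (log2 4.30 to 4.38) in at least 3 arrays. With limma 3.58.1 in R 4.3.3, group means were fitted to all 12 arrays, leaving 8 residual degrees of freedom with 4.37 from the prior. Tests were two-sided and adjusted by Benjamini-Hochberg over 17860 genes, and the fit was tested on simulated data. The number of arrays limits the precision. Python 3.11.15, pandas 2.3.3 and matplotlib 3.10.9 made tables and plots.

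The 37 members and all gene lists were chosen with earlier results of these data known. By rule, values in every array are given for the 14 members with the largest changes past the threshold in a time comparison, for the 3 members with the smallest p in each knockdown comparison and their difference, and for their family members where a shift between isoforms is described. Of each list of other pathway genes, up to 4 past the threshold with the largest change are named. Hif1a and the marker genes were named after their values were seen. Ratios were taken within arrays and not tested.

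Groups share replicate numbers. After removal of group means, same-number arrays of compared groups correlated at r = 0.137 to 0.373 in all 12 pairs, and other-number arrays at -0.279 to 0.0247. Deviations cancel out within a group, so the other-number values partly follow from the same-number ones. The numbers were taken to pair the samples, but the main fit held no term for them. Its standard errors, p-values and calls therefore leave the pairing out, and the replicate block includes it. The alternatives were the replicate block, array weights, renewed quantile normalization, no filter or one at the array's median, the mean of a gene's probe sets, only the groups compared, a trended robust fit, and leaving out arrays.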

Additional observations from a re-analysis of the deposited data

How the results depend on the processing

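No member passed in the knockdown comparisons at either day or in their difference under any alternative run. In controls, 14 members changed with time, and 11 to 18 did so under the alternatives that left out no array, with 14 under the replicate block, which pairs same-number arrays. In knockdown cells the count was 15, with 13 to 15 under those alternatives and 14 under the replicate block, where Gapdh was the call lost (adjusted p = 0.0564). Leaving out arrays gave 5 to 13 in controls and 6 to 13 in knockdown cells. The lowest counts came without a whole replicate number, which leaves 2 arrays a group. Shares of all genes called under the same alternatives are not given here. A drop in these counts is therefore not shown to be particular to the members. Aldoc, Pfkp and Pgd passed in both time comparisons under all 17 alternatives, as did Eno2 in controls and Slc2a1 and Slc2a3 in knockdown cells. The knockdown change of Hk2 over time, -0.02, turned positive with renewed quantile normalization (0.0296, adjusted p = 0.861), without day 3 knockdown replicate 3 (0.00113) and without replicate 3 (0.00983), and leaving out arrays gave -0.0607 to 0.00983. The cause was not tested. With the mean of a gene's probe sets, the change of the Pdk1 to Pdk3 ratio was 0.197 in controls and 0.188 in knockdown cells instead of 0.33 and 0.37, and that of the Slc2a1 to Slc2a4 ratio in controls 0.0344 instead of 0.17, since dimmer second probe sets of Pdk1 and Slc2a1 moved less. Leaving out arrays gave 0.288 to 0.424 for the Pdk1 to Pdk3 ratio in knockdown cells.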

Other observations

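Some members followed the replicate number within groups. Eno3 read 9.19 and 9.12 in the replicate 2 arrays of day 3 (control and knockdown) and 9.21 and 9.24 in those of day 6, below the replicate 1 and replicate 3 arrays of the same group in all 4 groups. Slc2a3 was lowest in the replicate 1 array of all 4 groups, at 7.93, 8.03, 8.65 and 9.31. These patterns were picked after the values were seen, and neither was tested.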
